A study of Mus musculus with 12 samples.

Results

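The genes described here make up the machinery by which newly made secreted and membrane proteins enter the endoplasmic reticulum (ER), lose their signal peptide, receive N-linked glycans and fold. They were taken as a list of 46 gene symbols, from the signal recognition particle to the ER chaperones, and all 46 were found among the 24327 genes of the expression table. The RNA came from the lateral ventricle choroid plexus (LV ChP), the tissue that secretes cerebrospinal fluid, of male mice with the labelled genotype FoxJ1:cre x bacTRAP (EGFP:L10a) and a labelled age of 60 days. All 12 libraries came from this genotype, so no untagged genotype enters any comparison. Foxj1-Cre acts in ciliated epithelium, including the ChP epithelium, and switches on an EGFP-tagged form of the ribosomal protein RPL10A, so that translating ribosome affinity purification (TRAP) with an antibody to EGFP recovers RNA associated with RPL10A. The RNA left unbound, the supernatant, holds RNA of every cell of the tissue, that of the epithelium included. Tissue was collected at 9 a.m., 2 h into the light phase, or at 9 p.m., 2 h into the dark phase. Each of the 4 groups (9 a.m. TRAP, 9 p.m. TRAP, 9 a.m. supernatant and 9 p.m. supernatant) held 3 libraries, and each library came from tissue pooled from 3 mice. The study asked which transcripts differ in their association with ribosomes between the light and the dark phase.

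A protein bound for secretion is recognised by its signal sequence as it leaves the ribosome. The signal recognition particle (SRP) binds that sequence and docks on its receptor, the ribosome is handed to the SEC61 translocon, and signal peptidase removes the signal sequence while oligosaccharyltransferase adds a preformed glycan to asparagine. Inside the ER, the Hsp70 protein BiP (Hspa5), the Hsp90 protein GRP94 (Hsp90b1), the lectins calreticulin and calnexin and the protein disulfide isomerases fold the chain. When unfolded proteins build up, the unfolded protein response raises transcription of many of these chaperones, in part through the ER stress response element, a promoter motif to which the factors NF-Y and ATF6 are known to bind. The ChP epithelium secretes large amounts of protein, transthyretin above all, and depends on this route.

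This element was searched for as the letters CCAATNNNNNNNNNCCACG, on both strands, in the 250 bases before the start of each gene in the RefSeq promoter table (build GRCm38.p6), which held 37 of the 46 genes. It was found in 6 of the 37 (16.2%), against 35 of all 27025 genes with a promoter entry (0.13%). As the element is known from such chaperone genes, this share was to be looked for and is not a result of these data. The 6 genes were all chaperones or folding enzymes: Hspa5, Hsp90b1, Calr, Canx, Pdia6 and Dnajc3. Among the 337 genes with a promoter entry and a mean above 100 FPKM (fragments per kilobase of transcript, scaled to the mapped reads of the library, the deposited unit), only 4 held it, and these were Calr, Hsp90b1, Hspa5 and Canx, the 4 most abundant of the 46 genes. The motif did not go with a high level throughout. Of 123 further genes of the wider pathway 4 (3.25%) held it, all at low levels. Over the 12 libraries Alg12 ranged from 0 to 19.1 FPKM, Creld2 from 0 to 46.2, Derl3 from 0 to 2.39 and Syvn1 from 0.113 to 21.4. The motif is a description of these letters and is neither a shown binding site nor a cause of any value below. The sequences are given from 5′ to 3′ on the strand of the gene, with the motif in capitals, because 4 of these genes also had the highest levels of the 46. For Hspa5 all 250 bases before the start are shown (chr2:34771840-34772089, plus strand), and for the others the motif with 20 bases on each side. The windows lie at chr10:86705618-86705676 and chr10:86705513-86705571 for Hsp90b1 (minus strand), chr8:84847055-84847113 for Calr (minus), chr11:50325780-50325838 for Canx (minus), chr12:17266471-17266529 for Pdia6 (plus) and chr14:118937807-118937865 for Dnajc3 (plus).
Hspa5: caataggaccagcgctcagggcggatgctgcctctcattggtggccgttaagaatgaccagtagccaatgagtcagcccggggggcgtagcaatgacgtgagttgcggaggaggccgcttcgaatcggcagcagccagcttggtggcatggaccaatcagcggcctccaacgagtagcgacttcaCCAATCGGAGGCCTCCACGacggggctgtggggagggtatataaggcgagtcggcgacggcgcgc
Hsp90b1, distal: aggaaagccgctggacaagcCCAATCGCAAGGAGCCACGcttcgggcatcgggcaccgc
Hsp90b1, proximal: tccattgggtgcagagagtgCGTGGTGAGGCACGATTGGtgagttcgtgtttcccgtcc
Calr: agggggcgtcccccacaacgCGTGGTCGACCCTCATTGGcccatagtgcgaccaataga
Canx: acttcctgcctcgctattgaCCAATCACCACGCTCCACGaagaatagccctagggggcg
Pdia6: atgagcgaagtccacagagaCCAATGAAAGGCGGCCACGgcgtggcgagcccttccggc
Dnajc3: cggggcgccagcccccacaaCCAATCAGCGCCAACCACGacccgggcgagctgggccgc
In Calr and in the proximal copy of Hsp90b1 the motif lies on the opposite strand and therefore reads as its reverse complement. The distance from the first base of the motif to the gene start ranged from 65 bases in Hspa5 to 212 bases in the distal copy of Hsp90b1.

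The FPKM table gives no read counts, and depth could only be approximated from its smallest steps, as 2760000 reads in the shallowest library (9 a.m. TRAP replicate 3) to 11500000 in the deepest (9 p.m. supernatant replicate 3). MicroRNA genes took 31.9% to 75.4% of the summed FPKM of a library. The labelled tissue was borne out by 8 markers of ChP epithelium, none at 0 in any group, whose summed level was 38600 to 53360 FPKM in 9 a.m. TRAP, 54380 to 72230 in 9 p.m. TRAP and 39160 to 52790 in the supernatant at either time. Summed fibroblast markers were 5.97 to 33.3 FPKM in TRAP and 89.3 to 311 in the supernatant. Hepatocyte markers summed to 14.5 to 686 FPKM in 9 a.m. TRAP against 0.636 to 75.8 in 9 p.m. TRAP, and the plasma cell markers Jchain and Mzb1, which would mark another highly secretory cell, were listed at 0 in every TRAP library. As RNA was measured in bulk, fewer cells of a type and less RNA per cell cannot be told apart.

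The levels of the 46 genes spanned more than 2 orders of magnitude per unit of length, and chaperones headed the order. Calr (calreticulin, a soluble lectin chaperone that also stores calcium) had the highest mean over the 12 libraries, 1174 FPKM, followed by Hsp90b1 with 981, Hspa5 with 390, Canx (calnexin, the membrane-bound lectin chaperone) with 355 and Dad1 (a small subunit of oligosaccharyltransferase) with 270. These 5 genes held 54.0% to 66.7% of the summed FPKM of all 46 in each library. Next came Pdia3, the disulfide isomerase that works with the lectins, at 205, Srp14, an RNA-binding SRP subunit, at 147, P4hb, the founding protein disulfide isomerase, at 130, Pdia4 at 127 and Pdia6 at 95.6 FPKM. Calr and Hsp90b1 overlapped in their ranges over the libraries, 888 to 1665 and 677 to 1280 FPKM, and Hspa5 and Canx did so too, so the order within each of these pairs does not exceed the spread between libraries. At the low end stood Srp9 with a mean of 5.10, Spcs3 with 8.57, Spcs2 with 9.63 and Ssr2 with 9.82 FPKM, although each is a subunit of a complex whose other subunits were more abundant. Within the SRP, whose subunits SRP9 and SRP14 form a heterodimer, the 2 partners thus differed from 5.10 to 147 FPKM, and both have a short coding sequence (258 and 330 nt).

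**Figure D1:**
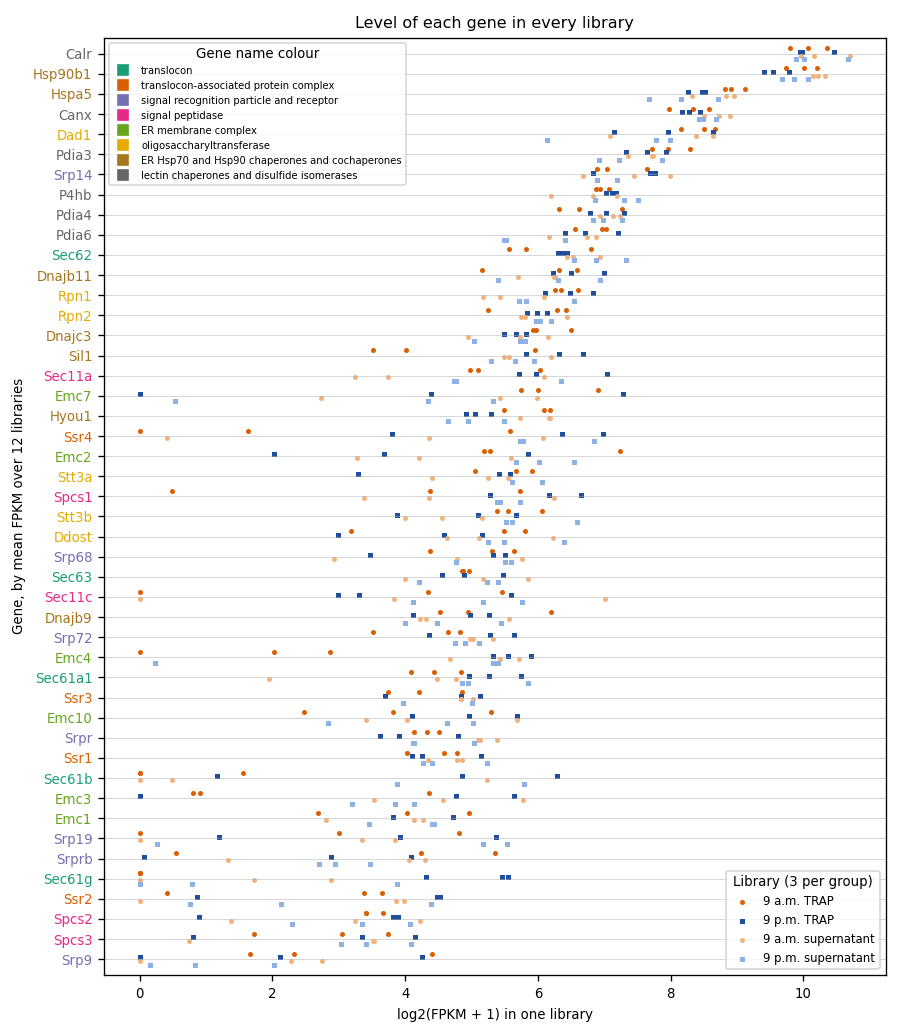
Level of each of the 46 genes in each of the 12 libraries as log2(FPKM + 1), ordered by mean FPKM, with colours and shapes for the 4 groups and gene name colours for the role. Calr, Hsp90b1, Hspa5 and Canx stand at the top with the points of all libraries close together, whereas Sec61g, Srp19, Sec61b and Ssr2 range from 0 to above 4.

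How far libraries of one group lay apart differed widely between the genes. The SD of log2(FPKM + 1) within groups was 0.19 for Hsp90b1, 0.20 for Canx, 0.33 for Hspa5 and 0.35 for Calr, but 2.42 for Srp19 and Sec11c, 2.41 for Emc7 and 2.23 for Ssr4. The spread went with the length of the coding sequence more than with the level: over the 46 genes Spearman's rho with the within-group SD was -0.72 for the longest coding length and -0.63 for the mean FPKM, a description across genes that share the same libraries. Over all 11156 genes with a mean above 1 FPKM, rho was -0.44 with coding length (10427 genes with one) and -0.35 with the mean FPKM. The 12 members with a coding length under 600 nt, among them Sec61b, Sec61g, Ssr4, Spcs1, Emc4, Srp9 and Srp14, had a median SD of 1.63, and 10 of them fell below 1 FPKM in at least one library. For the 34 longer members the median SD was 0.61, and 5 fell below 1 FPKM. Between 20 and 100 FPKM, 5 short members had a median SD of 1.68 and 23 long members 0.64, as did the genes of the whole table in that band (1.60 for 351 short and 0.67 for 2288 long genes). Between 1 and 20 FPKM the members showed no such gap, with 1.55 for 5 short and 1.52 for 4 long ones (1.62 and 1.25 in the whole table). Sec11c (618 nt) and Emc7 (723 nt), among the widest, also count as long. Thus 31 of the 46 genes were at 1 FPKM or above in every library and 15 were not. The number below 1 FPKM per library ran from 0 in 9 p.m. TRAP replicate 2 to 9 in 9 a.m. TRAP replicate 3, in which 6 were listed at 0.

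**Figure D2:**
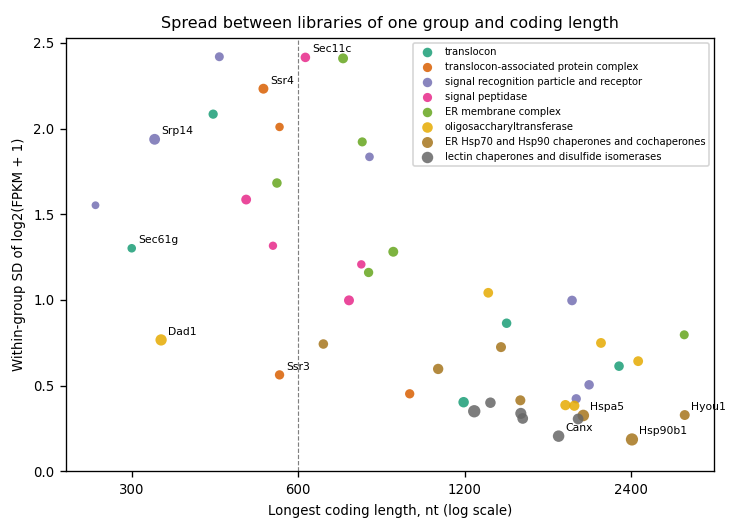
Within-group SD of log2(FPKM + 1) over the 4 groups of 3 libraries against the longest coding length in nt (log axis) for the 46 genes, coloured by role, with point area growing with mean FPKM and a dashed line at 600 nt. Genes with a short coding sequence such as Srp14 and Ssr4 spread widely, Dad1 less so (SD 0.77), and chaperone genes with a long one lie lowest, at 0.19 for Hsp90b1.

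From the light to the dark phase, none of the 46 genes passed the test in either fraction. Calls needed an adjusted p under 0.05 and a log2 fold change beyond 0.4 in limma on log2(FPKM + 1). In TRAP 0 of the 46 were called, as were 0 of all 10563 genes tested (0.00%), and the lowest adjusted p of a member was 0.941. At an unadjusted p under 0.05 stood 7 members (15.2%), 6 higher at 9 p.m. (Sec61g, Emc4, Sil1, Sec61b, Ssr4 and Spcs1) and 1 lower (Emc2), against 3.96% of all genes. The 2 groups of TRAP libraries did not overlap for 6 members (13.0%), 3 higher and 3 lower at 9 p.m., against 8.63% of all genes (5.70% higher and 2.93% lower). In the supernatant 0 of 46 were called against 1 of 11075 genes (0.00903%), 5 members (10.9%) had an unadjusted p under 0.05 (4 higher, 1 lower, against 3.28% of all genes), the lowest adjusted p was 0.970, and 7 members (15.2%) did not overlap, 4 higher and 3 lower, against 8.70% of all genes (4.90% higher and 3.79% lower). In both fractions the members' shares at an unadjusted p under 0.05 and without overlap were above those of the whole table, a difference that was not tested, and since no member passed after adjustment no single gene below can be said to have changed.

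The balance of directions in TRAP depended on the scaling. Unless FPKM is named, a higher or lower mean here and below is one of log2(FPKM + 1). Its direction can differ from that of the mean FPKM. As deposited, 27 of the 46 genes had a higher mean at 9 p.m. (median log2 fold change 0.06, against 0.16 over all genes, of which 56.9% were higher), but 19 did after quantile normalization (median -0.12), 20 with microRNA genes left out and libraries rescaled (-0.17) and 24 without 9 a.m. TRAP replicate 3 (0.03). In the supernatant 21 were higher as deposited (median -0.06, against 0.03 over all genes, of which 51.8% were higher), 21 after quantile normalization and 22 after rescaling. Summed over the genes of a role, a difference that no scaling removed was seen in TRAP for 2 of the 8 roles, noticed in these data and not tested. The 7 ER Hsp70 and Hsp90 chaperones and cochaperones summed to 1636 to 1896 FPKM at 9 a.m. and 1225 to 1547 at 9 p.m. Most of that sum was Hsp90b1 and Hspa5, with TRAP means of 1018 and 493 FPKM at 9 a.m. and 768 and 342 at 9 p.m. Of the 7 genes, 2 went the other way, Sil1 (28.9 to 78.7 FPKM) and Dnajb11 (69.5 to 96.9 FPKM). The 5 translocon genes summed to 90.0 to 169 FPKM at 9 a.m. and 181 to 266 at 9 p.m. This gap was narrow under the other scalings, from 164.9 to 165.3 after quantile normalization and from 152.7 to 153.9 after rescaling. Much of it lay in Sec61g and Sec61b, with means of 0 and 0.647 FPKM in 9 a.m. TRAP and 35.8 and 35.4 in 9 p.m. TRAP. Their 9 a.m. zeros, taken up below, can be failed estimates. In the supernatant the same 2 sums also did not overlap as deposited (1753 to 2055 against 1216 to 1616, and 157 to 179 against 186 to 284 FPKM), but did so after either rescaling. The other 6 sums overlapped in both fractions as deposited, while under both other scalings those of oligosaccharyltransferase and of the lectins and isomerases in TRAP, and of the SRP in the supernatant, were lower at 9 p.m. without overlap. The ChP epithelium markers, which summed higher in every 9 p.m. than in every 9 a.m. TRAP library, and the hepatocyte markers, with a median sum of 72.3 FPKM in 9 a.m. TRAP and 0.941 in 9 p.m. TRAP, moved along with the TRAP sums, as did the fibroblast markers, at 13.3 to 33.3 FPKM in 9 a.m. TRAP and 5.97 to 9.73 in 9 p.m. TRAP. A large part of the ChP marker sum was Ttr, at 20922 to 31302 FPKM in 9 a.m. TRAP and 32933 to 51514 in 9 p.m. TRAP. Over the 8 ChP markers the median log2 fold change in TRAP was 0.0754, with 6 higher and 2 lower at 9 p.m. Kl was lower in each 9 p.m. TRAP library (429, 411 and 467 FPKM) than in each 9 a.m. one (628, 531 and 503). In the supernatant the 6 macrophage markers summed to 3.54 to 13.6 FPKM at 9 a.m. and 18.3 to 36.3 at 9 p.m. (Cd68 at 0 throughout), and the 5 erythroid markers to 0.0811 to 3.64 and 12.8 to 106 FPKM (Hba-a1 and Hba-a2 at 0 at 9 a.m., Hbb-b2 at 9 p.m.). Of the 4 macrophage markers tested there, 2 were higher and 2 lower at 9 p.m. C1qa was 0, 0 and 1.06 FPKM at 9 a.m. and 14.9, 34.7 and 5.26 at 9 p.m. Csf1r was 0.475, 0 and 3.59 against 0.0735, 1.39 and 0.859 FPKM. The part of these markers in the time differences of either fraction was not tested.

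**Figure D3:**
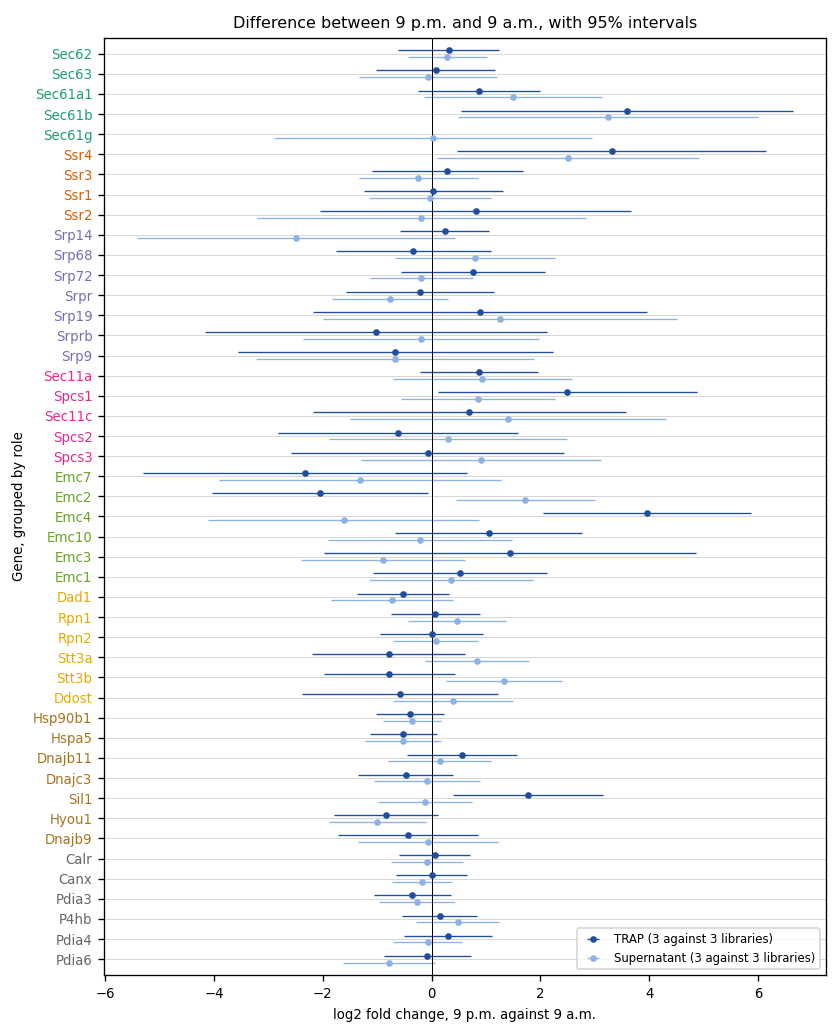
Log2 fold change from 9 a.m. to 9 p.m. of each gene in TRAP and in the supernatant, on log2(FPKM + 1) with 95% intervals from limma, 3 against 3 libraries, with genes ordered and coloured by role. Intervals are narrow for the chaperones and lectins at the bottom and wide for genes with a short coding sequence, and no gene passed the adjusted threshold. The TRAP value of Sec61g is not drawn because it is at 0 throughout 9 a.m. TRAP.

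Of the 7 ER Hsp70 and Hsp90 chaperones and cochaperones, 5 had a lower mean at 9 p.m. in TRAP under each scaling (4 without 9 a.m. TRAP replicate 3) and 6 in the supernatant as deposited. Hspa5, which binds unfolded chains and also holds the stress sensors in check, lies at chr2:34771970-34777547 in GENCODE M21 (GRCm38, as for all genes placed here), which starts it inside the promoter window shown above, and stood at 554, 448 and 477 FPKM in 9 a.m. TRAP and at 354, 305 and 367 in 9 p.m. TRAP. Every 9 p.m. TRAP library was thus below every 9 a.m. one, with a log2 fold change of -0.52 (95% interval -1.14 to 0.09, adjusted p = 0.941). In the supernatant it was 318, 492 and 455 at 9 a.m. and 284, 416 and 203 FPKM at 9 p.m., with overlap and a log2 fold change of -0.52 (-1.22 to 0.17, adjusted p = 0.970). Hyou1 (GRP170, a large Hsp70 relative and nucleotide exchange factor of BiP, chr9:44379490-44392369) was the one member to lie lower without overlap in both fractions. It measured 67.4, 43.9 and 71.8 FPKM in 9 a.m. TRAP and 29.0, 32.0 and 38.4 in 9 p.m. TRAP. The supernatant held 52.3, 71.4 and 71.2 FPKM of it at 9 a.m. and 29.8, 44.0 and 24.0 at 9 p.m. Its log2 fold change was -0.84 in TRAP (SE 0.44, adjusted p = 0.941) and -1.003 in the supernatant (SE 0.41, adjusted p = 0.970).

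Hsp90b1, which folds Toll-like receptors and integrins, was at 853, 1174 and 1026 FPKM in 9 a.m. TRAP and 880, 677 and 747 in 9 p.m. TRAP. Those groups overlapped by 1 library. In the supernatant its 1186, 1280 and 1127 FPKM at 9 a.m. all exceeded the 1075, 927 and 816 at 9 p.m. (log2 fold change -0.36, interval -0.89 to 0.17, adjusted p = 0.970). Dnajc3 (p58IPK, a DnaJ cochaperone that presents clients to BiP) was 89.5, 59.9 and 61.6 FPKM in 9 a.m. TRAP, above the 55.4, 49.9 and 43.7 of 9 p.m. TRAP (log2 fold change -0.48, interval -1.35 to 0.40), while its supernatant values overlapped. Sil1, the other nucleotide exchange factor of BiP, went the other way in TRAP. Its 9 a.m. values were 15.2, 61.1 and 10.5 FPKM and its 9 p.m. values 102, 55.6 and 78.4, overlapping through replicate 2 of each time (log2 fold change 1.78, SE 0.63, adjusted p = 0.941). No such difference was measured in the supernatant, where Sil1 lay between 38.2 and 72.0 FPKM (log2 fold change -0.12, interval -0.98 to 0.75). The remaining J-domain genes, Dnajb9 and Dnajb11, overlapped between times in both fractions.

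**Figure D4:**
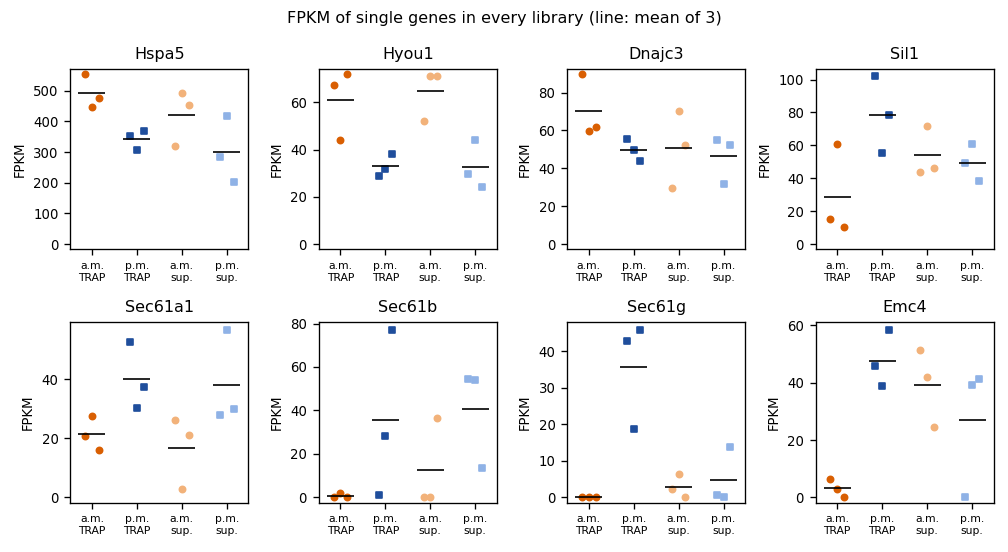
FPKM of 8 genes in each of the 12 libraries, with a line at the mean of each group of 3, for TRAP and supernatant (sup.) at each time. Hspa5, Hyou1 and Dnajc3 lie lower in all 9 p.m. than in all 9 a.m. TRAP libraries, and Sec61a1, Sec61g and Emc4 lie higher. Sec61g stands at 0 throughout 9 a.m. TRAP.

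The translocon genes were higher in mean at 9 p.m. in TRAP, 5 of 5 as deposited and without 9 a.m. TRAP replicate 3 but 4 of 5 after quantile normalization or rescaling. In the supernatant 4 of 5 were higher as deposited and after rescaling, and 3 of 5 after quantile normalization. Sec61a1 encodes the channel itself (chr6:88503579-88518905). It measured 20.6, 27.6 and 16.0 FPKM in 9 a.m. TRAP and 52.5, 30.1 and 37.2 in 9 p.m. TRAP, and 26.1, 2.87 and 21.2 against 28.0, 56.6 and 29.8 in the supernatant. The times did not overlap in either fraction, with log2 fold changes of 0.87 (interval -0.26 to 1.99) and 1.49 (-0.15 to 3.12) and adjusted p of 0.941 and 0.970. The 2 small subunits of the channel, each with a single membrane span, were those with a low or zero level in 9 a.m. TRAP. Sec61g (gamma, chr11:16500530-16508484, coding length 300 nt) was listed at 0 in each 9 a.m. TRAP library and stood at 42.8, 18.9 and 45.8 FPKM in 9 p.m. TRAP (adjusted p = 0.941), so that no fold can be given. Its supernatant values were 2.30, 6.38 and 0 FPKM at 9 a.m. and 0.735, 0 and 13.7 at 9 p.m., which overlapped. Sec61b (beta) was 0, 1.94 and 0 FPKM in 9 a.m. TRAP against 1.25, 28.1 and 76.9 in 9 p.m. TRAP, and 0, 0.403 and 36.7 against 54.6, 54.1 and 13.7 in the supernatant. Its groups overlapped in both fractions, and the adjusted p was 0.941 and 0.970. An RNA listed at 0 in libraries that hold over 15 FPKM of its obligate partner Sec61a1 can be a failed estimate, and the depth of 9 a.m. TRAP, 2760000 to 8150000 reads by the approximation above against 6190000 to 8840000 for 9 p.m. TRAP, goes the same way as these zeros, although replicate 2, the deepest of 9 a.m. TRAP, also lists Sec61g at 0. Its part in them was not tested. Sec62 and Sec63, which assist entry after translation, differed by 0.31 and 0.08 on the log2 scale in TRAP, and the sign of Sec63 turned under another scaling.

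In the translocon-associated protein complex, which sits beside the channel and helps some signal sequences open it, Ssr4 stood out by its spread. Its TRAP values were 2.12, 47.0 and 0 FPKM at 9 a.m. and 12.9, 126 and 81.3 at 9 p.m. In the supernatant it was 0.328, 66.7 and 19.4 at 9 a.m. and 54.0, 113 and 52.0 FPKM at 9 p.m. The times overlapped in both fractions, with an adjusted p of 0.941 and 0.970. Ssr1 and Ssr3, the most evenly measured of the complex (SD 0.45 and 0.56), differed by 0.03 and 0.28 in TRAP and by -0.03 and -0.24 in the supernatant on the log2 scale, and both values of Ssr1 changed sign under another scaling. All 4 genes of the complex had a higher mean at 9 p.m. in TRAP as deposited, 3 of 4 under either other scaling and 2 of 4 without 9 a.m. TRAP replicate 3.

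The SRP and its receptor showed no common direction, with 3 of 7 genes higher at 9 p.m. in TRAP and 2 of 7 in the supernatant. Srpr, the receptor subunit that meets the SRP, was the one gene of this role to separate the times. It was at 34.1, 40.6 and 33.1 FPKM in 9 a.m. supernatant and at 16.3, 16.6 and 31.9 in 9 p.m. supernatant (log2 fold change -0.77, SE 0.49, adjusted p = 0.970), a separation of 31.9 from 33.1 at its closest. In TRAP its values overlapped, from 16.5 to 21.9 at 9 a.m. and from 11.3 to 26.8 FPKM at 9 p.m. Srp14 had 1 library far from the rest. It lay between 102 and 252 FPKM in 11 of the 12 libraries but at 0.446 in 9 p.m. supernatant replicate 2, and its supernatant log2 fold change was -2.495 (interval -5.42 to 0.43).

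Signal peptidase genes were higher in mean at 9 p.m. in 5 of 5 cases in the supernatant and 3 of 5 in TRAP, though 2 of 5 in TRAP without 9 a.m. TRAP replicate 3. Spcs1, a noncatalytic subunit, had the lowest p in TRAP, with 52.1, 19.8 and 0.407 FPKM at 9 a.m. and 70.5, 99.6 and 37.7 at 9 p.m. (log2 fold change 2.495, interval 0.12 to 4.87, adjusted p = 0.941). The groups overlapped through 9 a.m. replicate 1. Of the alternative catalytic subunits, Sec11a was 30.5 to 64.2 FPKM at 9 a.m. and 51.4 to 130 at 9 p.m. in TRAP, and Sec11c ranged from 0 to 128 FPKM over all libraries.

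The ER membrane complex (EMC), an insertase for membrane proteins, held the members with the most opposed values. Emc4 (chr2:112363011-112368027) was at 6.28, 3.07 and 0 FPKM in 9 a.m. TRAP and at 45.8, 38.9 and 58.2 in 9 p.m. TRAP. The groups lay far apart (log2 fold change 3.96, SE 0.87), yet the adjusted p was 0.941. In the supernatant Emc4 was 51.6, 41.9 and 24.5 FPKM at 9 a.m. and 0.175, 39.2 and 41.2 at 9 p.m., so that the low 9 a.m. TRAP libraries also lay below all 9 a.m. supernatant libraries (log2 fold change of TRAP against supernatant -3.64, SE 0.93, adjusted p = 0.605). Emc2, a cytosolic subunit, ran opposite: 37.7, 35.6 and 149 FPKM in 9 a.m. TRAP, 11.8, 56.5 and 3.05 in 9 p.m. TRAP, 8.67, 47.2 and 17.5 in 9 a.m. supernatant and 49.9, 92.1 and 63.8 in 9 p.m. supernatant. Only the supernatant groups separated (log2 fold change 1.72, interval 0.44 to 2.99, adjusted p = 0.970), by the margin from 47.2 to 49.9. The means of subunits of one complex thus lay in opposite directions in the same libraries, and of the 6 EMC genes 4 were higher at 9 p.m. in TRAP under each scaling and 3 without 9 a.m. TRAP replicate 3.

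For oligosaccharyltransferase, the 2 alternative catalytic subunits had higher levels at 9 p.m. in the supernatant. Stt3b, which also glycosylates sites that the first enzyme skips, was 22.6, 15 and 34.8 FPKM at 9 a.m. and 94.8, 45.0 and 47.6 at 9 p.m. (log2 fold change 1.33, SE 0.49). Stt3a, which works alongside the translocon, was 37.1, 20.3 and 45.9 against 65.8, 47.7 and 65.5 FPKM (log2 fold change 0.84, SE 0.43). Neither pair of groups overlapped, and the adjusted p was 0.970 for both. In TRAP both had a lower mean at 9 p.m., -0.78 and -0.79 on the log2 scale, with overlap. Of the 6 genes of the enzyme 5 were higher at 9 p.m. in the supernatant, and 2 in TRAP as deposited but 0 under either other scaling. Dad1, which is small but abundant, ranged from 69.2 to 406 FPKM.

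Among the lectin chaperones and disulfide isomerases the times overlapped for every gene in both fractions, although their TRAP sum was lower at 9 p.m. without overlap under both other scalings, as given above. Calr differed by 0.05 (interval -0.60 to 0.71) in TRAP and by -0.08 (-0.74 to 0.58) in the supernatant on the log2 scale, and Canx by 0.00 (-0.66 to 0.66) and -0.18 (-0.73 to 0.37), and both TRAP values turn negative under another scaling. These intervals leave room for differences of up to 0.74 in size. P4hb was 121, 134 and 116 FPKM in 9 a.m. TRAP and 129, 137 and 144 in 9 p.m. TRAP, a difference whose sign another scaling turned, and its supernatant log2 fold change was 0.48 (-0.28 to 1.24). Pdia6, with the lowest p of these genes in the supernatant, was 117, 71.0 and 105 FPKM at 9 a.m. and 84.2, 44.0 and 44.8 at 9 p.m. (log2 fold change -0.79, interval -1.64 to 0.06, adjusted p = 0.970). In TRAP 4 of these 6 genes were higher at 9 p.m. as deposited but 1 of 6 under either other scaling.

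TRAP was compared with the supernatant at each time to ask which transcripts were relatively more ribosome-associated in the tagged cells than in the unbound RNA. None of the 46 genes was called (adjusted p under 0.05 and log2 fold change beyond 0.3). At 9 a.m. 5 of 10796 genes were called (0.0463%), the lowest adjusted p of a member was 0.605 (Emc4), 3 members (6.52%) had an unadjusted p under 0.05 against 4.50% of all genes, and 5 members (10.9%) did not overlap against 10.1%. At 9 p.m. 3 of 10924 genes were called (0.0275%), the lowest adjusted p of a member was 0.818, 4 members (8.70%) had an unadjusted p under 0.05 against 5.68%, and 4 members (8.70%) did not overlap against 11.9%. With both times in one fit, 12 of 11156 genes were called (0.108%), 3 members (6.52%) had an unadjusted p under 0.05 against 7.72%, and the lowest adjusted p of a member was 0.606. The median log2 fold change of the 46 genes was then -0.03 against -0.13 over all genes, with 22 of 46 higher in TRAP as deposited (43.2% of all genes), 24 after quantile normalization and 18 after rescaling.

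Rpn1, the oligosaccharyltransferase subunit that contacts the ribosome at the translocon, led this comparison. It was at 75.5, 80.3 and 96.2 FPKM in 9 a.m. TRAP against 34.9, 67.3 and 42.2 in the supernatant, without overlap, and at 112, 88.7 and 67.9 against 51.3, 92.6 and 55.7 at 9 p.m., with overlap. Over both times its log2 fold change was 0.64 (interval 0.08 to 1.20, adjusted p = 0.606). Pdia6 followed with 0.61 (0.04 to 1.18, adjusted p = 0.632), from 146, 104 and 83.8 FPKM in 9 p.m. TRAP against 84.2, 44.0 and 44.8 in 9 p.m. supernatant, where 1 library on each side overlapped. Sec11a had a value of 0.98 (-0.04 to 2.003, adjusted p = 0.660). Lower in TRAP were Sec62 with -0.56 (-1.10 to -0.02, adjusted p = 0.639) and Canx with -0.32 (-0.69 to 0.04, adjusted p = 0.670), although both encode membrane proteins made on ER-bound ribosomes. Sec62 stood at 85.5, 81.5 and 78.0 FPKM in 9 p.m. TRAP, below the 160, 116 and 92.4 of 9 p.m. supernatant. Calr, Hsp90b1 and Hspa5 differed by -0.13, -0.27 and 0.24, each with an interval that includes 0.

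Other members separated the fractions at one time only, and whether the times differ in this was tested by the interaction below. At 9 a.m. Stt3b was higher in TRAP (40.6, 65.6 and 45.8 against 22.6, 15 and 34.8 FPKM), and Srpr (19.2, 16.5 and 21.9 against 34.1, 40.6 and 33.1 FPKM) and Srp72 (10.4, 27.4 and 24.1 against 31.6, 38.9 and 30.5 FPKM), a large SRP subunit, were lower, all with an adjusted p of 0.886. Emc3, the insertase subunit of the EMC, was 0.872, 19.5 and 0.744 FPKM in 9 a.m. TRAP against 53.6, 10.6 and 22.7 in the supernatant, with overlap (log2 fold change -2.60, interval -5.02 to -0.18). At 9 p.m. Sec61g was higher in TRAP (42.8, 18.9 and 45.8 against 0.735, 0 and 13.7 FPKM), while Stt3a (8.76, 41.5 and 46.6 against 65.8, 47.7 and 65.5 FPKM) and Ddost (34.8, 23.1 and 6.94 against 44.0, 82.9 and 37.1 FPKM), a noncatalytic subunit of the same enzyme, were lower, all with an adjusted p of 0.818. The supernatant held far more fibroblast marker RNA than TRAP, as given above, and its part in these values was not tested.

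**Figure D5:**
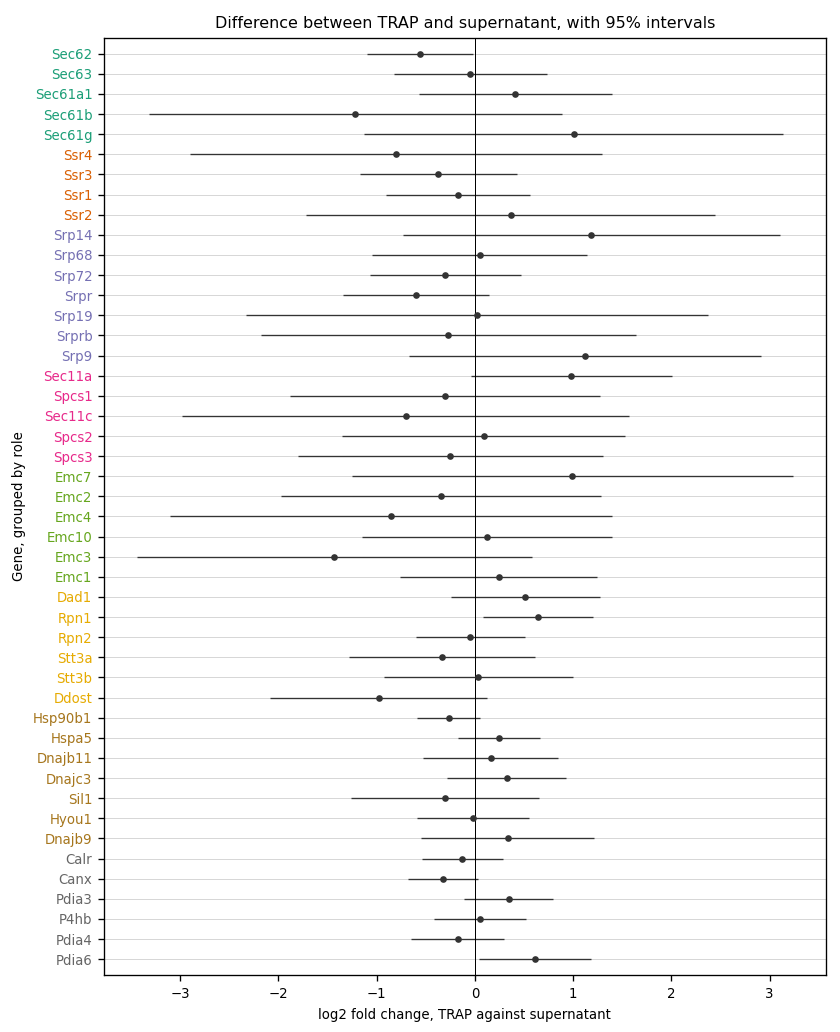
Log2 fold change of TRAP against supernatant for each gene over both times, on log2(FPKM + 1) with 95% intervals from limma, 6 against 6 libraries, ordered and coloured by role. Intervals above 0 belong to Rpn1 (0.64) and Pdia6 (0.61) and one below 0 to Sec62 (-0.56), and no gene passed the adjusted threshold.

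Whether the difference between times differed between TRAP and supernatant was tested by the interaction of time and fraction over the 12 libraries. It was called for 0 of the 46 genes and 1 of 11156 (0.00896%), with 5 members (10.9%) at an unadjusted p under 0.05 against 3.85% of all genes and a lowest adjusted p of 0.988 among the members. Those 5 were Emc4 (interaction 5.57 on the log2 scale, SE 1.61), Emc2 (-3.77, SE 1.23), Stt3b (-2.11, SE 0.75), Sil1 (1.89, SE 0.78) and Sec61g, for which no size is given because of the zeros above. For Hspa5 and Hyou1 the interaction was 0.00 (interval -0.88 to 0.87) and 0.16 (-1.02 to 1.35), so that the lower 9 p.m. values of these chaperones were not shown to differ between the fractions.

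Of 158 further genes listed for the wider pathway, 157 were in the table and 143 to 147 were tested per comparison. None was called by limma in any of the 6 comparisons, and 4 to 8 per comparison had an unadjusted p under 0.05, where the share of all genes was 3.28% to 7.72%. In TRAP 86 of 145 had a higher mean at 9 p.m. as deposited (59.3%, against 56.9% of all genes), but 82 did after quantile normalization and 72 after rescaling, and in the supernatant 72 of 146 did as deposited. By list, untested and as deposited, a higher mean at 9 p.m. in TRAP was measured for 11 of 14 unfolded protein response genes, 14 of 19 other chaperones and calcium-binding proteins, 14 of 18 other isomerases and oxidases, 10 of 14 further subunits of the same complexes, 5 of 7 genes of tail-anchored protein insertion and 6 of 9 of glycan trimming. It was measured for 10 of 24 genes of N-glycan precursor synthesis, 8 of 19 of ER-associated degradation and 8 of 21 of the COPII coat and its cargo. After rescaling without microRNA genes the tail-anchored list stood at 2 of 7 and the isomerases at 9 of 18. In that comparison the gene of lowest p was Sesn2 (log2 fold change -1.38), a stress-induced metabolic regulator, for the unfolded protein response, Tmx1 (1.63), a membrane-bound isomerase, for the isomerases and Mpdu1 (-3.39), which helps use dolichol-linked sugars, for the glycan precursor, all with an adjusted p of 0.941. It was Sec61a2 (-2.72) for the further subunits, Ubl4a (-3.56) for tail-anchored insertion and Edem3 (-0.80) for glycan trimming. For the other chaperones it was Cnpy3 (-1.61), for ER-associated degradation Ufd1l (2.06) and for the COPII list Tmed9 (1.69), also at an adjusted p of 0.941. Over both times, Asna1, the ATPase that delivers tail-anchored proteins to the ER, had the lowest adjusted p of the further genes in TRAP against supernatant, 0.435, with a log2 fold change of 1.17.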

How the data were processed

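RNA of TRAP and supernatant from the LV ChP was measured in the light phase (9 a.m.) and the dark phase (9 p.m.) in 3 libraries per group, and groups were taken from the sample labels. Single reads, 50 nt long, were aligned by the authors with STAR 2.4.0 (mm10), and FPKM per gene from the Cufflinks tools was deposited. Neither the annotation version nor strand use was stated in those sources, and for the 19 members whose exons overlap an antisense gene the reads of both genes cannot be told apart. FPKM is relative to the mapped reads of a library. Whole reads could not be recovered, so depth is approximate, no counting interval is given, and p-values measure the spread between pools.

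Of 24354 rows, 27 names turned into dates were left out. Tests used limma 3.58.1 in R 4.3.3 on log2(FPKM + 1) with an intensity trend and empirical Bayes, on genes averaging above 1 FPKM in the libraries of a comparison (all 46 members passed in each), adjusted by Benjamini-Hochberg over all genes tested. Fold changes on this scale understate those of low genes. Named were members that were called, that did not overlap between groups, or that had one of the 5 lowest p, and from other lists the gene of lowest p. Values of further members are given as levels. The members and lists were chosen with earlier results of these data known.

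By their labels, a TRAP and a supernatant library with the same number at one time came from the same animals, which pairs them, although their deviations from the group means did not run together (correlations of -0.0751 to -0.0144). Between times the numbers mark different mice (correlations of -0.00659 to 0.104). The replicate number as a block was an alternative, beside the pseudocount, the filter, the scaling, the variance model and left-out libraries. Genes were placed with GENCODE M21 on GRCm38, and promoters came from RefSeq (GRCm38.p6). The tests were tried on simulated data with normally distributed log values. These did not imitate single libraries falling to near 0, as for Srp14, so the trial lends no weight to values of such members. Plots used Python 3.11.15 and matplotlib 3.10.9. None of the 66 pairs of libraries held identical values.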

Additional observations from a re-analysis of the deposited data

How the results depend on the processing

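No member was called in any comparison under any of the 15 to 20 alternatives, and the lowest adjusted p that any member reached was 0.294 (Sec61g in TRAP between times, without the intensity trend), 0.467 (Sec61b in the supernatant), 0.456 (Emc4, TRAP against supernatant at 9 a.m.), 0.297 (Sec61g at 9 p.m.), 0.440 (Sec11a over both times) and 0.714 (Sec61g, interaction). The 5 to 9 members that the naming rule gave per comparison kept their direction under all of them, but of all 46 genes 24 did in TRAP between times, 26 in the supernatant, 23 and 24 for TRAP against supernatant at 9 a.m. and at 9 p.m., 27 over both times and 21 for the interaction (a gene that a stricter filter removed counted as kept). For the named members this was largely given in advance and lends them no weight. The rule takes genes without overlap or of lowest p, whose sign hardly turns when a library is left out. The filter, the variance model and the block also leave a fold change as it is. In TRAP between times another scaling turned the sign of 8 members, Calr, Canx and P4hb among them. The median log2 fold change of the 46 genes in TRAP between times was 0.0619 as reported, -0.122 after quantile normalization and -0.167 with microRNA genes left out. TRAP against supernatant at 9 a.m. gave 0.185 after quantile normalization in place of -0.0759, at 9 p.m. -0.194 without microRNA genes in place of 0.0189, and the interaction -0.211 and -0.197 in place of 0.0416. Leaving out one library at a time, the median ran from 0.0302 to 0.2 in TRAP between times, from -0.0693 to 0.11 in the supernatant (0.11 without 9 p.m. supernatant replicate 2), from -0.204 to 0.102 at 9 a.m. (0.102 without 9 a.m. TRAP replicate 3), from -0.0772 to 0.13 at 9 p.m., from -0.122 to 0.0236 over both times and from -0.0356 to 0.197 for the interaction. The cause was not tested.

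With the replicate number as a block, which pairs TRAP with supernatant libraries of the same mice, 0 members were called in each comparison. The medians were necessarily the same (-0.0759 at 9 a.m. and 0.0189 at 9 p.m.), because a block balanced over the groups changes the p-values but no fold change. Over both times the block gave 0 genes higher and 6 lower of the whole table in place of 2 and 10. Counts over all genes ranged from 1 to 6 lower at 9 a.m. in place of 5 (3 to 10 with a library left out, the most without 9 a.m. TRAP replicate 2) and from 0 to 6 at 9 p.m. in place of 3. Role sums, directions of all members and counts under other scalings were added after the data were seen. For the 12 short members the median within-group SD was 1.63, and the 95% interval of Sec61b between times in TRAP ran from 0.53 to 6.64 on the log2 scale, and the part of depth in this was not tested.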
